A study of Rattus norvegicus with 12 samples.

Results

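The miR-26 and miR-101 families were represented by 4 mature miRs, namely rno-miR-26a-5p, rno-miR-26b-5p, rno-miR-101a-3p and rno-miR-101b-3p, out of 426 miRs counted in serum extracellular vesicles (EVs) of rats with an injured Achilles tendon. The 4 were taken by name from the count table. miR-26a-5p was chosen by its measured count, the highest of any miR in 1 library, and miR-101 for what is known of it. Female Wistar rats, 12 weeks old, received a needle injury of the left Achilles tendon and daily intraperitoneal injections of rapamycin (2 mg per kg) or a matched volume of vehicle, PEG and Tween in water. The rapamycin stock was made in DMSO, which is not named among the components of the vehicle. Groups were vehicle day 7, rapamycin day 7, vehicle day 21 and rapamycin day 21, with 3 libraries each, each library from 1 animal, and with 5 injections by day 7 and 19 by day 21. Every animal was injured and no serum of uninjured animals was sequenced, so the groups compare rapamycin with vehicle after injury and do not show an effect of the injury. The GEO labels give tendon as the tissue, but the RNA came from serum, purified by size exclusion chromatography, which by itself does not separate EVs from all other carriers of serum miRs. In such bulk samples a level cannot tell fewer releasing cells from less release per cell.

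MiRs are short RNAs that pair with messenger RNAs, mainly through their seed (bases 2 to 8), and lower the output of those targets. miR-26 is encoded inside genes of the Ctdsp phosphatase family and is known to restrain proliferation and to target Ezh2, the methyltransferase of the Polycomb repressive complex. miR-101 is also known to target Ezh2 and to inhibit autophagy through targets such as Stmn1, Rab5a and Atg4d. Rapamycin inhibits mTOR, a kinase that promotes growth and holds back autophagy.

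The mature sequences show how close the forms of each family are, and which of them a short read could confuse. They are given 5′ to 3′ from RefSeq (assembly GRCr8), with the seed in capitals.
rno-miR-26a-5p: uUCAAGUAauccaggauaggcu
rno-miR-26b-5p: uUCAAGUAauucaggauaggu
rno-miR-101a-3p: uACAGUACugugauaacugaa
rno-miR-101b-3p: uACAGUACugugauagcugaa
rno-miR-144-3p: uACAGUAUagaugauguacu

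The forms of miR-26 shared the seed UCAAGUA and differed at 2 of the 21 positions compared, C11U and C21U, counted from 1 at the 5′ end of miR-26a-5p, with miR-26a-5p longer by 1 base. The forms of miR-101 shared the seed ACAGUAC and differed at 1 of 21 positions, A16G, counted from the 5′ end of miR-101a-3p. Reads were assigned to miRBase entries with 1 mismatch allowed, so the split of reads between miR-101a-3p and miR-101b-3p is less certain than their sum. Reads were kept from 17 nt, and a miR-26 read that ends before base 21 differs at C11U only. For such reads the split between the miR-26 forms has the same limit, and their share was not tested. The erythrocyte miR-144-3p shared bases 2 to 7 with miR-101 but not base 8, and had 74 to 253 counts per library. In GRCr8 the precursor of miR-26a-5p overlaps Ctdspl (chromosome 8), that of miR-26b-5p overlaps Ctdsp1 (chromosome 9), that of miR-101b-3p overlaps Rcl1 (chromosome 1) and that of miR-101a-3p overlaps a long non-coding RNA (chromosome 5). The opposite arms were close to absent. miR-101a-5p had 17 counts over all 12 libraries, miR-26b-3p had 12 and miR-26a-3p had 3.

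Levels are given in CPM, the count of a miR divided by all miR counts of its library and multiplied by 1000000. The study's supplementary read summary lists 10 of the 12 libraries, and values are given for these first. The listed libraries held 16327 to 51391 miR counts, and spike-ins took 52.5% to 71.8% of all counts. The libraries not listed, rapamycin day 7 replicate 2 and vehicle day 7 replicate 1, held 51431 and 95834 miR counts with spike-ins at 24.3% and 13.6%, and so stood apart. At the depth of the listed libraries, 3 counts correspond to 58.4 to 184 CPM, and all 4 miRs were far above this level in every library. Reads carried no molecular identifiers, so intervals and limits of this kind cover counting error only.

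miR-26a-5p was the most abundant of the 4 in every library. In the listed day 7 libraries it stood at 59615 and 32118 CPM with rapamycin and at 60791 and 55554.5 CPM with vehicle. At day 21 it stood at 60452, 31580 and 48191 CPM with rapamycin and at 56776, 49378 and 56488 CPM with vehicle. The vehicle libraries lay close together, and 2 rapamycin libraries, day 7 replicate 3 and day 21 replicate 2, fell well below them, while the other rapamycin libraries lay in or near the vehicle range. The listed means were 46391 ± 14133 CPM with rapamycin (SD, n = 5) and 55797.5 ± 4112 CPM with vehicle (SD, n = 5). In the libraries not listed it reached 83082 CPM with rapamycin and 80337 CPM with vehicle, above all 10 listed libraries.

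Rank set the choice of miR-26a-5p and is given as description. It ranked 3rd to 7th in the listed libraries, where miR-191a-5p was always first. In rapamycin day 7 replicate 2 it ranked first, with 8.31% of the miR counts (Wilson 95% interval 8.07% to 8.55%) against 7.39% for miR-191a-5p. In vehicle day 7 replicate 1 it ranked second, with 8.03% (Wilson 95% interval 7.86% to 8.21%) against 9.01% for miR-191a-5p. Both libraries with the highest ranks of miR-26a-5p were thus those outside the read summary, 1 per treatment.

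miR-26b-5p, with the same seed, stood at 12077 and 9573 CPM with rapamycin and at 11597 and 10274 CPM with vehicle in the listed day 7 libraries. At day 21 it stood at 14148, 5630 and 11292 CPM with rapamycin and at 13042, 10593 and 10507 CPM with vehicle. The treatments overlapped at both timepoints, and the lowest value again belonged to rapamycin day 21 replicate 2. The libraries not listed gave 17091 CPM with rapamycin and 13012 CPM with vehicle, of which the first was above and the second within the listed range.

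miR-101a-3p stood at 10479 and 12123 CPM with rapamycin and at 6694 and 5332 CPM with vehicle in the listed day 7 libraries. At day 21 it stood at 9371, 11040 and 6297 CPM with rapamycin and at 5012, 4774 and 6711 CPM with vehicle. Among listed libraries, 4 of 5 rapamycin libraries were above every vehicle library, and the fifth, rapamycin day 21 replicate 3, lay inside the vehicle range. How many of all miRs did the same was not counted. The listed means were 9862 ± 2227 CPM with rapamycin (SD, n = 5) and 5705 ± 933 CPM with vehicle (SD, n = 5). The libraries not listed gave the highest values of all, 17635 CPM with rapamycin and 18031 CPM with vehicle.

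miR-101b-3p, the least abundant of the 4, stood at 5931 and 7336 CPM with rapamycin and at 5539 and 4767 CPM with vehicle in the listed day 7 libraries. At day 21 it stood at 4410, 4706 and 4030 CPM with rapamycin and at 4513, 3345 and 5313 CPM with vehicle. Here the treatments overlapped at day 21 but not at day 7. The libraries not listed gave 6300 CPM with rapamycin and 6908 CPM with vehicle, both within the listed range.

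**Figure D1:**
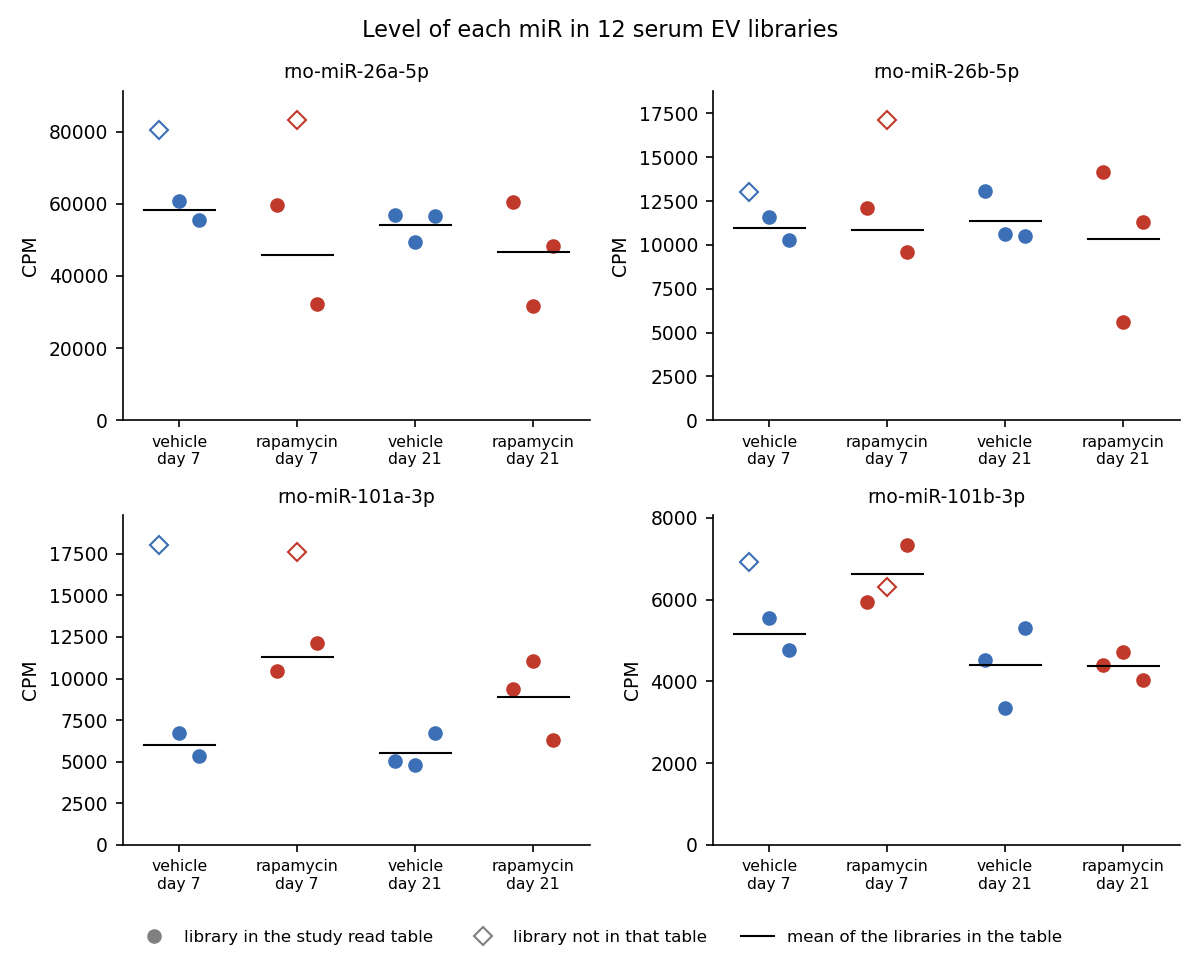
Level of each miR (CPM, linear axis from 0) by group. Each filled circle is a listed library, each open diamond a library outside the read summary, and each line the mean of the listed libraries. miR-101a-3p with rapamycin lies above the vehicle circles in 4 of 5 listed libraries, and its highest values, 17635 and 18031 CPM, are the open diamonds of both treatments.

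By mean CPM over the listed libraries, the order was miR-26a-5p (51094), miR-26b-5p (10873), miR-101a-3p (7783) and miR-101b-3p (4989). miR-26a-5p exceeded miR-26b-5p, and miR-101a-3p exceeded miR-101b-3p, in 10 of 10 listed libraries. Among listed libraries, miR-26b-5p exceeded miR-101a-3p in 5 of 5 with vehicle and in 3 of 5 with rapamycin. Over all 12 libraries it did so in 8. In both libraries not listed miR-101a-3p was the higher, at 17635 against 17091 CPM with rapamycin and 18031 against 13012 CPM with vehicle. Together the 4 took 5.30% to 8.84% of the miR counts in the listed libraries and 12.4% and 11.8% in the others. In log2 CPM over the listed libraries, the SD was 0.36 for miR-26a-5p, 0.36 for miR-26b-5p, 0.50 for miR-101a-3p and 0.31 for miR-101b-3p. The median SD was 0.44 over the 74 miRs that reached 10 counts or more in all 12 libraries, called the well-counted miRs here.

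Differential expression was assessed on counts by the quasi-likelihood test of edgeR for all 365 miRs seen in the listed libraries, and called where the Benjamini-Hochberg adjusted p over all of them was under 0.05. Since the members were chosen with earlier results known, no p was adjusted over these 4 alone. At day 7, 0 of the 4 were called, beside 0.548% of all miRs tested (2 miRs, with 14 at an unadjusted p under 0.05). For miR-101a-3p the log2 fold change of rapamycin against vehicle was 0.77 (SE 0.43, edgeR adjusted p = 0.979), or 0.57 under calibrator spike-in scaling. For miR-26a-5p it was -0.48 (SE 0.32, edgeR adjusted p = 0.979), but it ran from -0.99 without rapamycin day 7 replicate 1 to -0.0256 without rapamycin day 7 replicate 3. The corresponding values were 0.23 (SE 0.46) for miR-101b-3p and -0.15 (SE 0.40) for miR-26b-5p. Both forms of miR-101 were higher with rapamycin than with vehicle at day 7 without overlap of the listed libraries. With 2 libraries per treatment, however, 36.5% of the 74 well-counted miRs (27 miRs) were higher in this sense. With all 3 libraries per treatment the figure was 2.7% (2 miRs), and none of the 4 was among them.

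At day 21, 0 of the 4 were called, beside 0% of all miRs tested (15 of 365 at an unadjusted p under 0.05 by edgeR and 9 by DESeq2). miR-101a-3p again had the largest fold change of the 4, 0.67 on the log2 scale (SE 0.35, edgeR adjusted p = 1). Over the alternative settings of scaling, filtering and library set, this log2 fold change ran from 0.31 to 0.71. For miR-26a-5p it was -0.21 (SE 0.26), with -0.0134 without rapamycin day 21 replicate 2, -0.41 without rapamycin day 21 replicate 1 and -0.71 under calibrator spike-in scaling. The log2 fold change was -0.13 (SE 0.33) for miR-26b-5p and -0.01 (SE 0.38) for miR-101b-3p.

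With both timepoints combined and the timepoint as a blocking factor, 0 of the 4 were called, beside 0.548% of all miRs tested (2 miRs, both lower with rapamycin). miR-101a-3p was 1.63-fold higher with rapamycin (log2 fold change 0.71, SE 0.27), with an unadjusted p of 0.00804 by edgeR and an adjusted p of 0.326. Over the same alternative settings its log2 fold change ran from 0.41 to 0.78. An unadjusted p under 0.05 was reached by 5.75% of all miRs tested (21 miRs). miR-26a-5p had a log2 fold change of -0.32 (SE 0.19, edgeR adjusted p = 0.830), or -0.66 under calibrator spike-in scaling, miR-26b-5p of -0.14 (SE 0.25) and miR-101b-3p of 0.08 (SE 0.29). The miR-26 forms and miR-101a-3p thus had estimates of opposite sign, none past the threshold.

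With all 12 libraries, 0 of the 4 were called at day 7, at day 21 or within timepoints, beside 0%, 0% and 0% of 426 miRs (8, 12 and 15 at an unadjusted p under 0.05). The within-timepoint log2 fold change of miR-101a-3p was then 0.46 (SE 0.33, edgeR adjusted p = 0.907) and that of miR-26a-5p -0.33 (SE 0.30, adjusted p = 0.907). A two-sided exact permutation test of log2 CPM, with labels permuted within timepoints, gave miR-101a-3p a difference of 0.79 in the listed libraries, with p = 0.0333 and, adjusted over the 74 well-counted miRs, 0.206. With all 12 libraries it gave 0.64, with an exact p of 0.08, or 0.502 once adjusted. The smallest p that these designs allow is 0.0167 and 0.005.

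**Figure D2:**
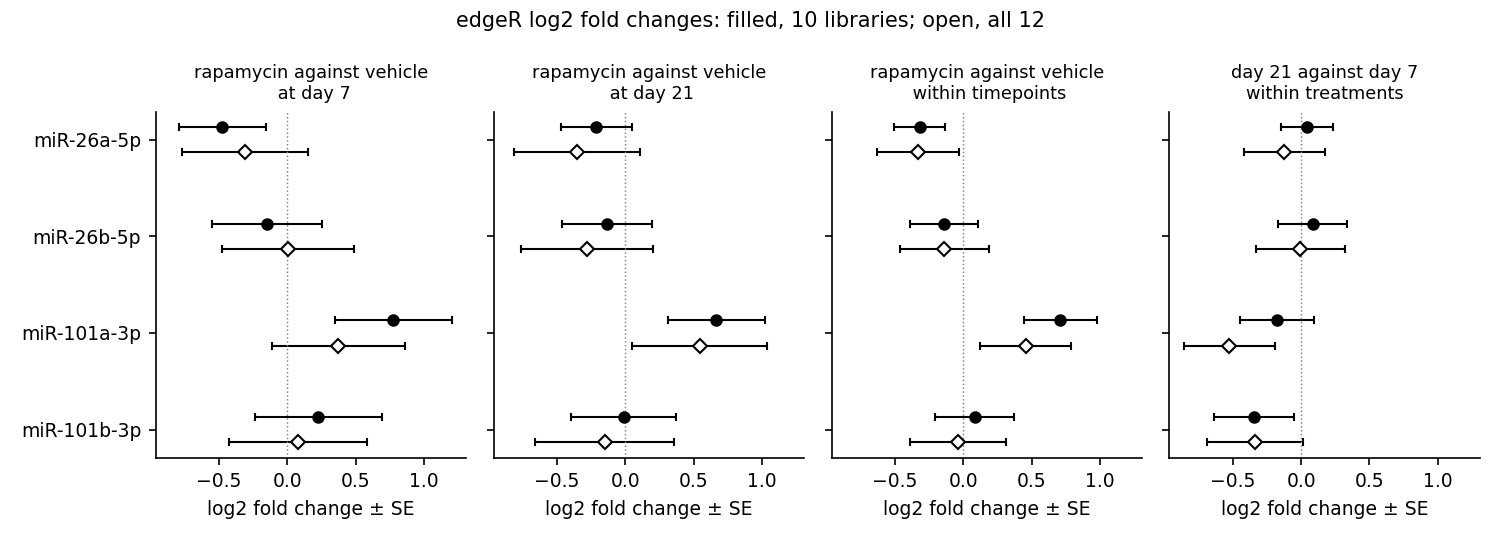
Log2 fold change ± SE of each miR from edgeR, with filled circles for the 10 listed libraries and open diamonds for all 12. Positive values mean higher with rapamycin (first 3 panels) or at day 21 (last panel). miR-101a-3p lies furthest to the right in the treatment panels, at 0.77, 0.67 and 0.71 in the listed libraries, and none of the 4 passed an adjusted p of 0.05.

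The treatment differences at day 7 and day 21 were not shown to differ. This interaction was called for 0 of the 4, beside 0.274% of all miRs tested (1 miR), and the log2 difference ran from -0.27 (SE 0.41) for miR-26a-5p to 0.24 (SE 0.60) for miR-101b-3p. Over all 12 libraries it was called for 0% of miRs. Day 21 against day 7 within treatments was likewise called for 0 of the 4, beside 0.274% of all miRs tested (1 miR). The log2 fold change was -0.34 (SE 0.29) for miR-101b-3p, -0.18 (SE 0.27) for miR-101a-3p, 0.04 (SE 0.19) for miR-26a-5p and 0.09 (SE 0.25) for miR-26b-5p. Over all 12 libraries 3.52% of miRs (15 miRs) were called for time and still 0 of the 4, with miR-101a-3p at -0.53 (SE 0.33). Both libraries added there are from day 7 and stood apart from the listed ones. Time and these libraries cannot be told apart in that fit.

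The balance of the forms within each family does not depend on how libraries are scaled, since both forms were counted in the same library. The count of miR-101a-3p over that of miR-101b-3p was 1.77 and 1.65 with rapamycin and 1.21 and 1.12 with vehicle in the listed day 7 libraries. At day 21 it was 2.13, 2.35 and 1.56 with rapamycin and 1.11, 1.43 and 1.26 with vehicle. The 5 rapamycin libraries were above the 5 vehicle libraries, with means of 1.89 ± 0.33 and 1.23 ± 0.13 (SD, n = 5 each). The log2 ratio was higher by 0.60 with rapamycin within timepoints by a two-sided exact permutation (p = 0.0167, the smallest the 120 arrangements allow, without adjustment).

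The same test was run on all pairs of well-counted miRs. Among the 2701 ratios, 4.18% (113 pairs) had no overlap between the treatments in the listed libraries, and 297 pairs had an unadjusted p under 0.05. Adjusted over these 2701 pairs, an adjustment added after the ratio had been seen, the p of the miR-101 ratio was 0.249, and 0 pairs passed 0.05. The smallest p, 0.0167, was reached by 181 pairs, too few for any pair to pass. With so few arrangements this adjustment cannot decide on the ratio. In the libraries not listed the ratio was 2.80 with rapamycin and 2.61 with vehicle, so that vehicle day 7 replicate 1 exceeded every listed rapamycin library. With all 12 libraries the ratios differed by 0.53 on the log2 scale, with an exact permutation p of 0.06 and an adjusted p of 0.643, and 0.481% of pairs (13 pairs) had no overlap, this ratio not among them. Counting error was also large, as miR-101b-3p had 72 to 245 counts in the listed libraries. The share of miR-101a-3p in the pair was 61.0% in rapamycin day 21 replicate 3 (Wilson 95% interval 54.8% to 66.9%), the lowest listed with rapamycin. It was 58.8% in vehicle day 21 replicate 2 (52.4% to 64.9%), the highest listed with vehicle. Intervals of other libraries did not meet, such as 65.2% to 74.6% in rapamycin day 21 replicate 2 and 47.0% to 58.1% in vehicle day 21 replicate 1. The single base A16G between the forms and the mismatch allowed in read assignment bear on the same ratio, and their part in it was not tested.

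The ratio of miR-26a-5p to miR-26b-5p was 4.94 and 3.36 with rapamycin and 5.24 and 5.41 with vehicle in the listed day 7 libraries. At day 21 it was 4.27, 5.61 and 4.27 with rapamycin and 4.35, 4.66 and 5.38 with vehicle. The treatments overlapped, and the log2 difference of -0.21 did not pass a two-sided exact permutation (p = 0.267, and 0.573 adjusted over the same pairs). With all 12 libraries it was -0.20, with an exact permutation p of 0.14 and an adjusted p of 0.785. Without rapamycin day 21 replicate 2, which had the highest listed ratio, it was -0.28 (exact permutation p = 0.0333, adjusted p = 0.450).

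**Figure D3:**
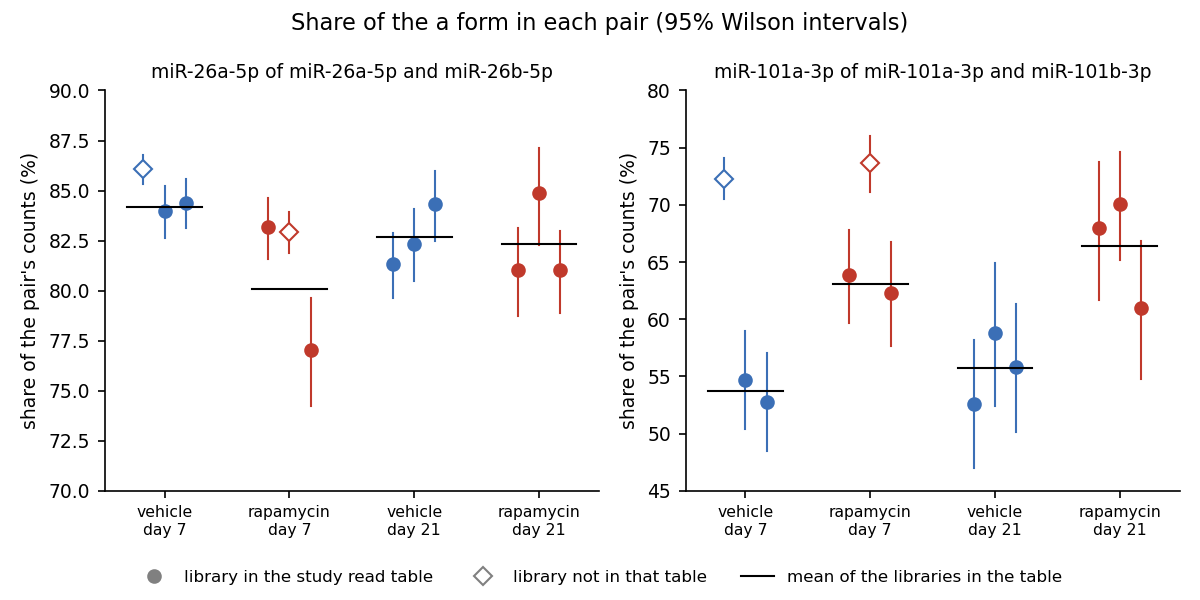
Share of the a form among the counts of each pair (%), by group, with Wilson 95% intervals of counting error. The vertical axes start at 70% for miR-26 and at 45% for miR-101. Filled circles are listed libraries, open diamonds the libraries outside the read summary, and lines the means of listed libraries. The listed rapamycin libraries lie above the listed vehicle libraries for miR-101, and both open diamonds lie above all of them.

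The libraries outside the read summary held more miR counts per spike-in than the listed ones. miR-26a-5p had 32.9 to 96.1 counts per 1000 calibrator counts in the listed libraries. Rapamycin day 7 replicate 2 had 460 of them, while 1025 were counted for vehicle day 7 replicate 1. miR-101a-3p had 5.99 to 15.7 in the listed libraries, and 97.6 and 230 in the same 2 others. By treatment its listed range was 6.13 to 15.7 with rapamycin and 5.99 to 10.6 with vehicle. As a share of miR counts the mean of the libraries not listed over that of the listed was 2.29 for miR-101a-3p, 1.60 for miR-26a-5p, 1.38 for miR-26b-5p and 1.32 for miR-101b-3p. Both libraries not listed were above all 10 listed ones in CPM for miR-26a-5p and miR-101a-3p, as they were for 18.9% of the 74 well-counted miRs (14 miRs). These libraries come from opposite treatments and were not tested as a group.

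**Figure D4:**
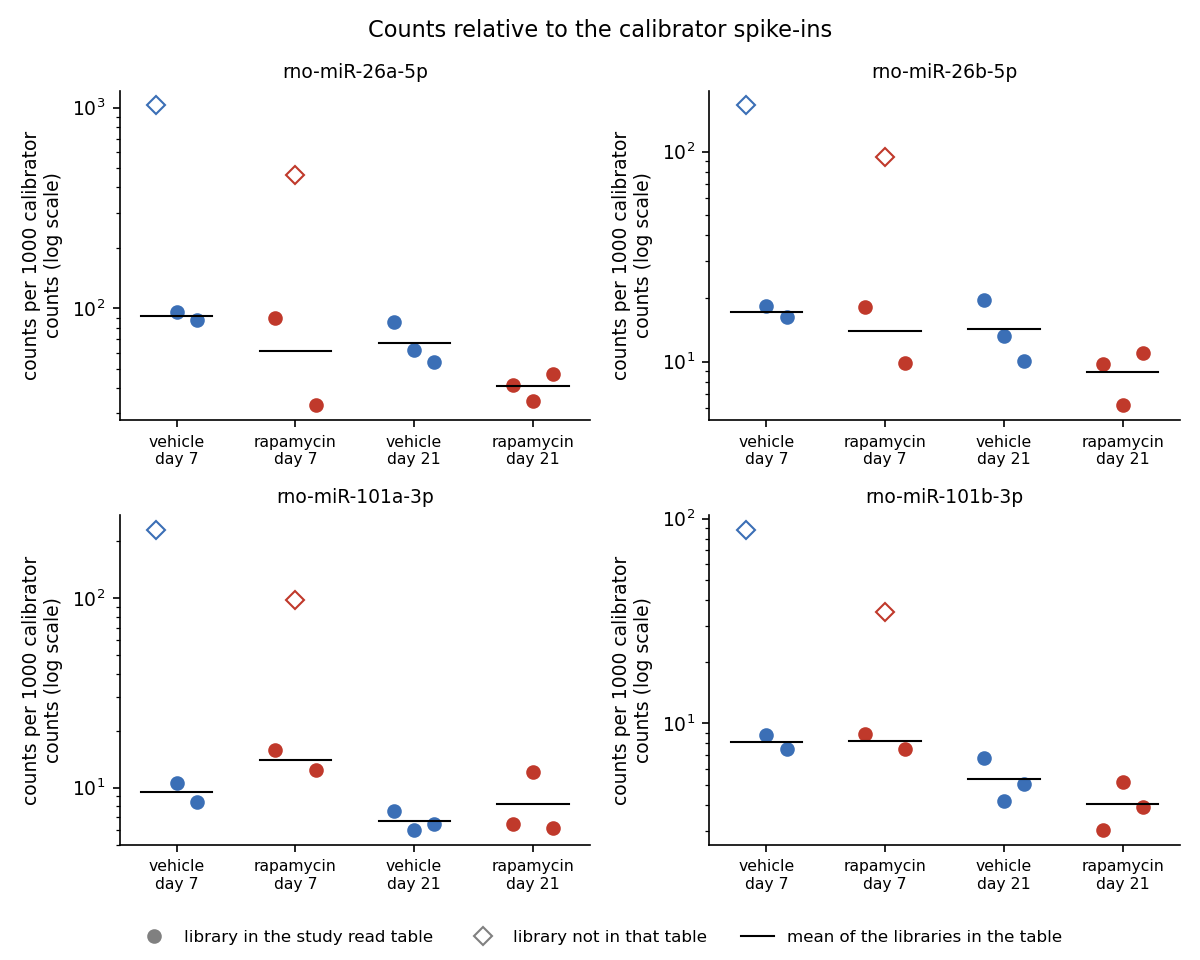
Counts of each miR per 1000 calibrator spike-in counts (log axis), by group, with symbols for listed libraries (filled circles), the libraries outside the read summary (open diamonds) and the means of listed libraries (lines). For miR-26a-5p the listed libraries span 32.9 to 96.1 and the open diamonds stand at 460 and 1025.

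Several other measures varied between the libraries and are given beside these levels. The miR total was 16327 to 32542 with rapamycin and 25032 to 51391 with vehicle in the listed libraries. Summed CPM of the erythrocyte markers (4 of 4 counted, none at 0 in any library) was 83069 to 139646 with rapamycin and 64372 to 117573 with vehicle, against 47053 and 18156 in the rapamycin and vehicle libraries not listed. The hepatocyte markers (3 of 3 counted) had summed levels from 0 to 10646 CPM in rapamycin libraries and from 279 to 6072 CPM in vehicle libraries, against 10947 and 13409 CPM in the libraries not listed. The hepatocyte markers miR-122-5p, miR-192-5p and miR-194-5p were all at 0 in rapamycin day 21 replicate 3. The myeloid and platelet markers (3 of 3, none at 0) had summed levels of 12843 to 23676 CPM in rapamycin libraries and 16739 to 24771 CPM in vehicle libraries, and of 6339 and 3777 CPM in the libraries not listed. The muscle markers (3 of 3) had summed levels of 0 to 1979 CPM in rapamycin libraries and 34.8 to 519 CPM in vehicle libraries, with miR-206-3p at 0 in all listed libraries, and of 933 and 10737 CPM in the others. The lymphocyte marker miR-150-5p ranged from 1451 to 11270 CPM in rapamycin libraries and from 4233 to 12726 CPM in vehicle libraries, and stood at 2158 and 1795 CPM in the others. The part of depth and of these cell sources in the levels of miR-26 and miR-101 was not tested.

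Correlations across libraries are given as a description. Over the 10 listed libraries, log2 CPM of miR-26a-5p and miR-26b-5p had Pearson's r = 0.80 and Spearman's rho = 0.81, and over all 12 they had 0.84 and 0.85. For miR-101a-3p and miR-101b-3p r was 0.66 and rho 0.64 in the listed libraries, and 0.76 and 0.77 over all 12. Between the families, miR-26a-5p and miR-101a-3p had r = -0.52 and rho = -0.19 in the listed libraries, and r = 0.22 and rho = 0.31 over all 12. These values describe the libraries, whose points share a total and a treatment.

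Among the 74 well-counted miRs, the patterns most like that of miR-26a-5p over the listed libraries were miR-142-5p (r = 0.84), a miR of blood cells, miR-26b-5p (r = 0.80) and miR-128-3p (r = 0.79). Over all 12 libraries miR-142-5p had r = -0.15 and miR-128-3p had r = -0.25, against 0.84 for miR-26b-5p. For miR-101a-3p, the more abundant form, they were miR-30a-5p, miR-27b-3p and miR-29c-3p, each with r = 0.88 over the listed libraries and with 0.95, 0.94 and 0.94 over all 12. miR-30a-5p, known to repress the autophagy gene Beclin 1, had a within-timepoint log2 fold change of 0.66 and was not called (edgeR adjusted p = 0.353). Over all 12 libraries it was 0.31 (edgeR adjusted p = 0.915). The libraries not listed held the most miR-30a-5p, 34921 CPM with rapamycin and 41186 CPM with vehicle.

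Other miRs of the same pathways were taken from fixed lists. Of 13 miRs known as inhibitors of autophagy, 12 were in the table, and 0 were called higher and 0 lower within timepoints, beside the background of 0.548% given above. The log2 fold change was above 0 for 8 and below 0 for 4, with a median of 0.48 against 0.03 over all 365 miRs. Of 8 miRs known to target Ezh2, 7 were in the table, and 0 were called higher and 0 lower, with 3 above and 4 below 0 and a median of -0.13. With independent filtering on mean abundance, as the study describes, the number of all miRs called within timepoints rose from 2 to 5. One of them was let-7c-5p of the Ezh2 list, with a log2 fold change of 1.03 (SE 0.31) and an edgeR adjusted p of 0.0408 under that filtering and of 0.135 without it. At day 21 let-7c-5p had a log2 fold change of 1.43 (SE 0.41), with an edgeR adjusted p of 0.0499 under filtering and 0.198 without it. It was also called at day 21 and within timepoints without rapamycin day 21 replicate 1 (edgeR adjusted p = 0.00547 and 0.00740) and without rapamycin day 21 replicate 2 (edgeR adjusted p = 0.000203 and 0.0138). Both of these runs left out a library with a low level. At day 21 let-7c-5p stood at 1286, 1276 and 11082 CPM with rapamycin, in order of replicate. Vehicle gave 1712, 1359 and 2437 CPM, so only rapamycin day 21 replicate 3 was above the vehicle libraries. Over all 12 libraries the within-timepoint value of let-7c-5p was 0.67 (SE 0.37, adjusted p = 0.907). Under the same filtering miR-101a-3p had an adjusted p of 0.126. Both lists were drawn up with earlier results of these data known.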

How the data were processed

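The authors purified serum EVs by size exclusion chromatography, prepared libraries with the RealSeq Biofluids kit and spike-ins, and counted reads with the miND pipeline. Per the submitters' processing notes and the study's methods, reads were trimmed with cutadapt 3.3, kept from 17 nt, and mapped with Bowtie 1.3.0 to mRatBN7.2 (2 mismatches) and then to miRBase (1 mismatch). The deposited table holds raw counts per mature miR, without normalization, for 426 miRs and 10 spike-ins in 12 libraries. Spike-ins were left out of miR totals, and 7 calibrators among them served as an alternative scale.

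Counts were tested with edgeR 4.0.16 (R 4.3.3; quasi-likelihood test, TMM factors) on the 10 libraries in the study's read summary, with all 12 as an alternative. A mean per treatment and timepoint gave the comparisons at each timepoint, and a timepoint block gave the general one. Every miR with at least 1 count entered (365 of 426). The fit was also run on simulated counts with changes larger than those of the 4 miRs. That run does not show whether changes of their size would be called. Log2 ratios used a pseudocount of 0.5 and an exact permutation within timepoints (SciPy 1.17.1), adjusted over all pairs of the 74 well-counted miRs, which replaced an adjustment over the 2 family ratios alone after the data had been seen. CPM carry no TMM factor. DESeq2 1.42.0, other scalings and filters, the replicate number as a block, and leaving out each library were alternatives. Mature sequences came from RefSeq, where 385 of 426 miRs matched. Named miRs were the 4 members, their opposite arms, called members of both pathway lists, the 3 miRs most like miR-26a-5p and like the more abundant miR-101, and each library's top miR. Markers of cell sources came from fixed lists, and miR-144-3p was named for its seed after sequences were compared. Members of the autophagy list that were not called were named after their values had been seen. Members and lists were chosen with earlier results of these data known. All tests were two-sided. The edgeR p sets a difference against the variation between libraries of different animals, counting error included. The permutation p places a difference among those of the rearranged labels.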

Additional observations from a re-analysis of the deposited data

Results flagged for a closer look

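The libraries outside the study's read summary entered no main test. Both exceeded all 10 listed libraries for miR-26a-5p and miR-101a-3p, as they did for 18.9% of the 74 well-counted miRs (14 miRs). miR-26a-5p stood at 83082 CPM in rapamycin day 7 replicate 2 and at 80337 CPM in vehicle day 7 replicate 1, against at most 60791 CPM in listed vehicle libraries. miR-26b-5p stood at 17091 CPM in rapamycin day 7 replicate 2, against at most 13042 CPM, while its 13012 CPM in vehicle day 7 replicate 1 did not exceed this. miR-101a-3p stood at 17635 CPM in rapamycin day 7 replicate 2 and at 18031 CPM in vehicle day 7 replicate 1, against at most 6711 CPM. miR-101b-3p stood at 6300 CPM in rapamycin day 7 replicate 2 and at 6908 CPM in vehicle day 7 replicate 1, against at most 5539 CPM. Both of these values were within the range of all listed libraries, which reached 7336 CPM. The groups held too few libraries to test for a single library far from the others.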

How the results depend on the processing

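In every comparison and every alternative run, 0 of the 4 miRs were called. The ratio of miR-101a-3p to miR-101b-3p differed by 0.53 with all 12 libraries and by 0.54 to 0.69 when each listed library was left out. The exact permutation p of the latter ran from 0.0167, the smallest that their 60 arrangements allow, to 0.0333. Adjusted over all pairs of well-counted miRs, the ratio passed 0.05 in none of the 13 settings. The few arrangements left such a pass hardly within reach, so this does not decide on the ratio. The ratio of miR-26a-5p to miR-26b-5p differed by -0.35 to -0.0708 when each was left out.

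Other values that kept their sign moved too. Leaving out each listed library gave miR-26a-5p -0.99 to -0.0256 at day 7 and -0.41 to -0.0134 at day 21, and the replicate block in the 10 libraries gave -0.86 at day 7. At day 7 miR-101a-3p ran from 0.37 to 0.91 over the other alternative settings and from 0.66 to 0.98 leaving out each listed library.

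Small fold changes turned sign. At day 7 miR-26b-5p was at 0.0039 with all 12 libraries (-0.32 to 0.0823 leaving out each listed library). At day 21 miR-101b-3p was at 0.0248 with edgeR's expression filter, and miR-26b-5p at -0.38 to 0.14 leaving out each library. Within timepoints miR-101b-3p was at -0.0357 with all 12, -0.24 with calibrator scaling and -0.0137 to 0.12 leaving out each library, and miR-26b-5p at -0.27 to 0.0266. For the difference between timepoints, all 12 libraries gave 0.0463 for miR-26a-5p, 0.29 for miR-26b-5p and -0.17 for miR-101a-3p. Calibrator scaling gave 0.12 and 0.37 for the miR-26 forms. RLE, no TMM factor and DESeq2 gave 0.11, 0.12 and 0.11 for miR-26b-5p. Leaving out each library gave -0.71 to 0.26, -0.24 to 0.28 and -0.0418 to 0.39 for miR-26a-5p, miR-26b-5p and miR-101a-3p. For day 21 against day 7, miR-26a-5p and miR-26b-5p were at -0.12 and -0.0054 with all 12, -0.0380 and -0.0041 without TMM factors, and -0.52 and -0.46 with calibrator scaling. Leaving out each library gave -0.19 to 0.17 and -0.0322 to 0.19. The causes were not tested. Calibrator scaling moved the median of all miRs to -0.27 within timepoints and to -0.50 over time.

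Over the 10 listed libraries, same-numbered libraries deviated with r from -0.49 to -0.02 (4 pairs) and over all 12 from -0.78 to 0.32 (6 pairs). A pairing by replicate number was thus not seen. So few pairs, with deviations taken within small groups, cannot exclude it. With the replicate block, 0 of the 4 were called in the 10 libraries and in all 12. With the block in all 12, miR-101b-3p was at -0.0352 within timepoints, the difference between timepoints was 0.0346, 0.29 and -0.0723 for miR-26a-5p, miR-26b-5p and miR-101a-3p, and the time difference was -0.12 and -0.0339 for the miR-26 forms.

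Counts of all miRs called within timepoints were 2 by edgeR, 0 by DESeq2, 0 with either count filter, 5 with independent filtering and 0 with the replicate block. The counts of miR-101b-3p limit the precision of the miR-101 ratio, and the 2 listed libraries per treatment that of day 7.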
